A study of Homo sapiens with 32 samples.

Results

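The microRNAs miR-212 and miR-132 are made from neighbouring hairpins of 1 primary transcript. They were followed here through loss of ERH and loss of the segment of DGCR8 reported to bind ERH. They were found by name, as the rows mir-212 and mir-132, 2 of the 1513 miRNA rows of a small RNA read-count table. The pair was chosen by the log2 fold change of mir-212 with ERH shRNAs, which ranked 2 from the bottom among the 667 rows tested, and mir-132 was added as its neighbour. All values of mir-212, mir-132 and their ratio for the ERH knockdown below are therefore a description without a test. Counts of other rows called with ERH shRNAs come from the fit over all rows. Comparisons of the genotypes, of their interaction with the knockdown and of vectors of the same kind did not choose the pair, and these were tested.

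The libraries came from 293T, a cell line grown from human embryonic kidney into which the SV40 large T antigen was introduced. The 4 wild-type (WT) clones were numbered 52, 55, 57 and 67. The 4 deletion clones, numbered 30, 34, 42 and 43, carried the genotype DGCR8 delta103-126Q, where codons 103 to 126 (24 codons) were removed by prime editing. Every clone was transiently transfected with each of 4 vectors, a pair of non-targeting ones (control shRNA 1 and control shRNA 2) and a pair against ERH (ERH shRNA 1 and ERH shRNA 2), then selected with puromycin and sorted on day 5 for a fluorescent marker on the vector. This gave 32 libraries in 8 groups of 4 clones. A clone descends from 1 edited or unedited cell, and each vector was given to a clone in 1 library. The p-values of the genotype comparisons measure the spread between clones. Those of the interaction and of vectors of the same kind measure the spread of differences within clones, which holds the error of single libraries.

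DROSHA and its RNA-binding partner DGCR8 form the Microprocessor, which cuts hairpins out of primary transcripts in the nucleus. ERH is a small nuclear protein reported to bind the DGCR8 N-terminus and to help the cutting of poor hairpins when a better one lies nearby in the transcript. The miR-212 and miR-132 locus is best known from neurons, where the transcription factor CREB switches it on after synaptic activity, and miR-132 shapes dendrites. In 293T cells it is expressed at a moderate to low level.

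The hairpins lie on the minus strand of chromosome 17 (GRCh38), mir-212 at 2050271 to 2050380 and mir-132 at 2049908 to 2050008. With this orientation mir-212 is the upstream hairpin, and 262 bases separate the pair. No gene of GENCODE release 29 contained them. The nearest gene on the same strand was the lincRNA AC090617.5, 4939 bases downstream of mir-132, and the protein-coding gene HIC1 lay 3773 bases away on the other strand. The build behind the counts is not given in the sources used here. RefSeq sequences (GRCh38.p14) were found for both names. The mature strands are shown because the 2 products share a target-pairing seed, which is in capitals (bases 2 to 8):
hsa-miR-212-3p: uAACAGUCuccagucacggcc
hsa-miR-132-3p: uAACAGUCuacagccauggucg
hsa-miR-212-5p: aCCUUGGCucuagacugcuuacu
hsa-miR-132-5p: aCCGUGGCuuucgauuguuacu

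The 3p strands had the same seed, and among 2370 human mature sequences in the table no other carried it. Over the 21 bases compared from the 5′ end they differed at 4, written with the base of miR-132-3p first: A10C, C14U, U17C and U20C. The 5p strands had different seeds and differed at 8 of 22 bases. Each row of the count table held the reads of both arms of its hairpin, so the 3p and 5p products could not be separated. Reads that reach past base 9 of the 3p strand tell mir-212 from mir-132.

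The hairpins are shown because their shape bears on how the Microprocessor meets them, with the 5p and 3p strands in capitals:
mir-212 hairpin: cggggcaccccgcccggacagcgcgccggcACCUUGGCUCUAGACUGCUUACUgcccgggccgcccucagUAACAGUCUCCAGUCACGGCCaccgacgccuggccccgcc
mir-132 hairpin: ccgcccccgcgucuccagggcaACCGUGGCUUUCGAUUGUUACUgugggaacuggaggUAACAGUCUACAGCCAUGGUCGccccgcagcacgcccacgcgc

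Of the 667 rows tested for the knockdown, 455 matched 1 hairpin by symbol and 292 of these had both arms annotated. Against those 292, the mir-212 hairpin stood out by base composition. Its GC content was 73.6%, above 97.3% of them, and the loop between its arms was 88.2% GC, above 99.7%. The mir-132 hairpin had a GC content of 65.3% and a loop of 64.3%, above 90.4% and 88.0% of the hairpins. In the predicted minimum free energy fold, 16 of the 21 bases of miR-212-3p and 18 of the 22 of miR-132-3p were paired, against a median of 19 paired 3p bases. The stem and loop from the start of the 5p to the end of the 3p strand were predicted at -25.7 kcal/mol for mir-212 and -25.9 kcal/mol for mir-132, both near the median of -26.1. The apical motifs UGU and GUG, which DGCR8 is known to favour, were searched on the transcribed strand in the loop plus 2 bases of each arm, where a UGUG holds both. The mir-132 window held UGU and GUG and the mir-212 window held neither, while 45.2% of the 292 hairpins had UGU and 39.4% had GUG. A match is a description of these letters only.

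Depth set the precision for mir-212. Libraries held 1318923 to 6222790 miRNA counts, with a median of 2299476.5, and 9139 to 33090 counts of the 4 spike-in RNAs. In the 16 control libraries mir-212 had 9 to 75 counts and mir-132 1140 to 2718. In the 16 ERH libraries these were 4 to 26 and 864 to 4846. Counts of the 2 vectors of an arm were therefore summed per clone. The summed mir-212 counts ran from 13 in WT clone 55 with ERH shRNAs, with an exact Poisson interval (95%) of 6.92 to 22.2, to 100 in WT clone 67 with control shRNAs, with an interval of 81.4 to 122. Intervals cover counting error only, and whether amplification copies were removed is not given in the sources used here. The miRNAs fixed as marks of this line were abundant, from a median of 7256 CPM (a row's counts relative to the library's miRNA total) for mir-10b to 61331 CPM for mir-92a. Marks of other cells were lower, from a median of 0 for the muscle miRNA mir-206 to 274 CPM for the blood-cell miRNA mir-142. The summed blood marks mir-142 and mir-223 ran from 154 to 324 CPM in WT control libraries and from 158 to 3551 CPM in deletion control libraries. With ERH shRNAs they ran from 81.6 to 590 CPM in WT and from 174 to 1522 CPM in deletion libraries. The highest value came from clone 30 in both arms of the deletion and from clone 55 in both arms of WT, where the control maximum was the control shRNA 1 library. Their part in the results was not tested beyond leaving each clone out.

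The 2 rows held very unequal counts. With control shRNAs, mir-212 stood at 17.2 CPM in WT clone 52, 11.3 in clone 55, 28.9 in clone 57 and 28.1 in clone 67, where library sizes were scaled by the trimmed mean of M-values (TMM). In deletion clones it stood at 16.4 in clone 30, 16.6 in clone 34, 14.98 in clone 42 and 15.8 in clone 43. All 4 deletion clones fell inside the range of the WT clones. The corresponding levels of mir-132 were 576, 701, 1163 and 825 CPM in WT clones 52, 55, 57 and 67. In deletion clones 30, 34, 42 and 43 they were 721, 759, 752 and 779.8 CPM. On this scale the coefficient of variation of the control levels was 40.1% in WT and 4.70% in deletion clones for mir-212, and 30.9% and 3.24% for mir-132. Per spike-in count the order was the reverse, 21.6% in WT and 32.4% in deletion clones for mir-212 and 20.7% and 27.0% for mir-132. The spread was not tested.

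With ERH shRNAs the mir-212 level was low in every clone. It stood at 6.33, 3.48, 5.48 and 7.12 CPM in WT clones 52, 55, 57 and 67, and at 3.39, 3.89, 4.26 and 3.12 CPM in deletion clones 30, 34, 42 and 43. The highest of these 8 values lay below the lowest of the 8 control values, 11.3 CPM. Group means were 21.4 ± 8.58 CPM and 5.60 ± 1.57 CPM (SD, n = 4) in WT clones, while deletion clones had means of 15.95 ± 0.75 CPM and 3.66 ± 0.51 CPM (SD, n = 4). The order of the 4 groups on the TMM scale was thus WT control, deletion control, WT ERH and deletion ERH. Neighbours within an arm overlapped on this scale, while the arms did not. Per 1000 spike-in counts the control means had the reverse order, 2.06 in WT and 2.29 in deletion clones.

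The neighbour mir-132 behaved differently. With ERH shRNAs it stood at 736, 705, 806 and 561 CPM in WT clones 52, 55, 57 and 67, and at 799.9, 535, 626 and 864 CPM in deletion clones 30, 34, 42 and 43. The arms overlapped in both genotypes. Group means were 816 ± 252 CPM and 702 ± 103 CPM (SD, n = 4) in WT clones, while deletion clones had means of 753 ± 24.4 CPM and 706 ± 152 CPM (SD, n = 4). The order of means on the TMM scale was WT control, deletion control, deletion ERH and WT ERH. No neighbours in it were apart by more than the larger of their SDs. Per 1000 spike-in counts WT control had the lowest mean, 81.3, followed by deletion control at 106.9, WT ERH at 112.0 and deletion ERH at 118.7.

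**Figure D1:**
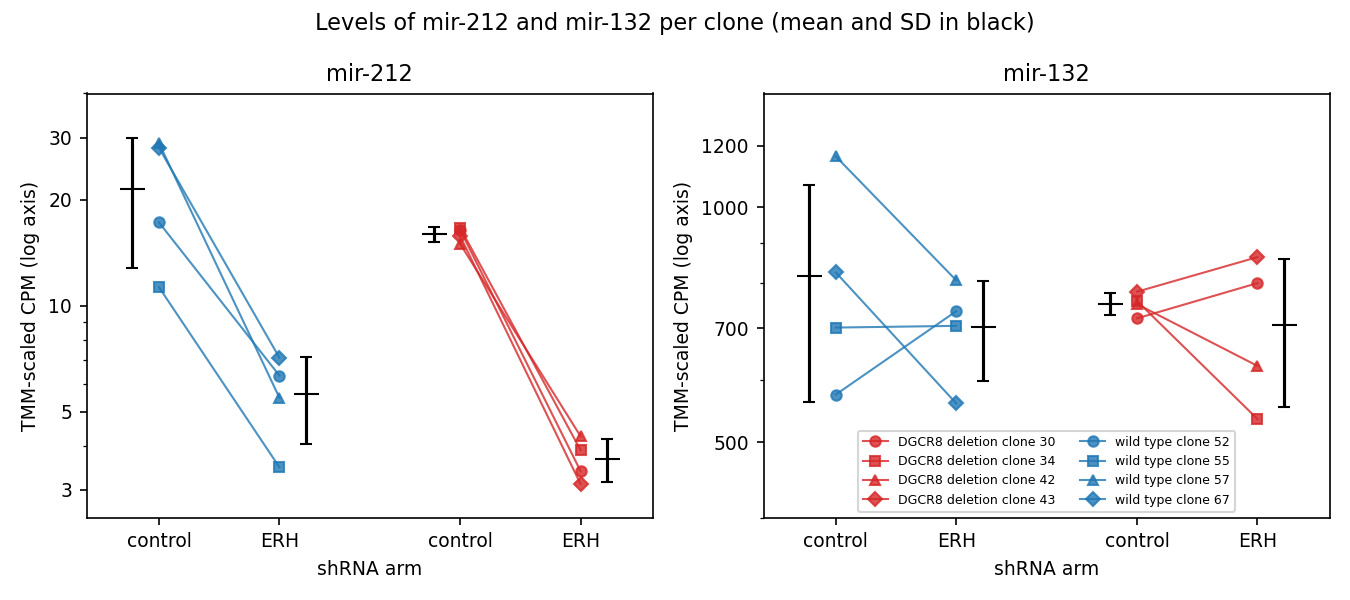
TMM-scaled CPM on a log axis (vertical) of mir-212 (left) and mir-132 (right) in 4 wild-type (blue) and 4 deletion (red) clones, with control or ERH shRNAs (horizontal); lines join the sums of a clone, and black bars give the mean and SD. All 8 lines of mir-212 go down, from 11.3 CPM or more to 7.12 CPM or less, while those of mir-132 cross.

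In the fit over all rows, the log2 fold change of mir-212 with ERH shRNAs was -2.01 over the 8 clones, a 4.02-fold lower level, and that of mir-132 was -0.15. In WT clones the values were -1.87 for mir-212 and -0.15 for mir-132. In deletion clones they were -2.13 and -0.12. By clone, the change of mir-212 in log2 CPM lay between -2.32 and -1.39, below 0 in 8 of 8 clones, and that of mir-132 between -0.56 and 0.35, below 0 in 4 of 8.

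Scaling moved these levels together. With counts set against the spike-in RNAs, which had been mixed into equal amounts of total RNA, the median of all 667 rows was 0.52 in place of 0.06, mir-212 was at -1.53 and mir-132 at 0.31. With scaling by total miRNA counts the median was 0.33, mir-212 was at -1.74 and mir-132 at 0.12. In WT clones the spike-in scale gave -1.23 for mir-212. Per clone on the spike-in scale, mir-212 was lower in 8 of 8 clones, by -2.42 to -0.80, and mir-132 was higher in 7 of 8. The sign of the mir-132 change thus turned with the scaling, and that of mir-212 did not. Between clones the arms overlapped slightly on this scale. Deletion clone 42 had 1.4006 mir-212 counts per 1000 spike-in counts with control shRNAs, and WT clone 67 had 1.4017 with ERH shRNAs.

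**Figure D2:**
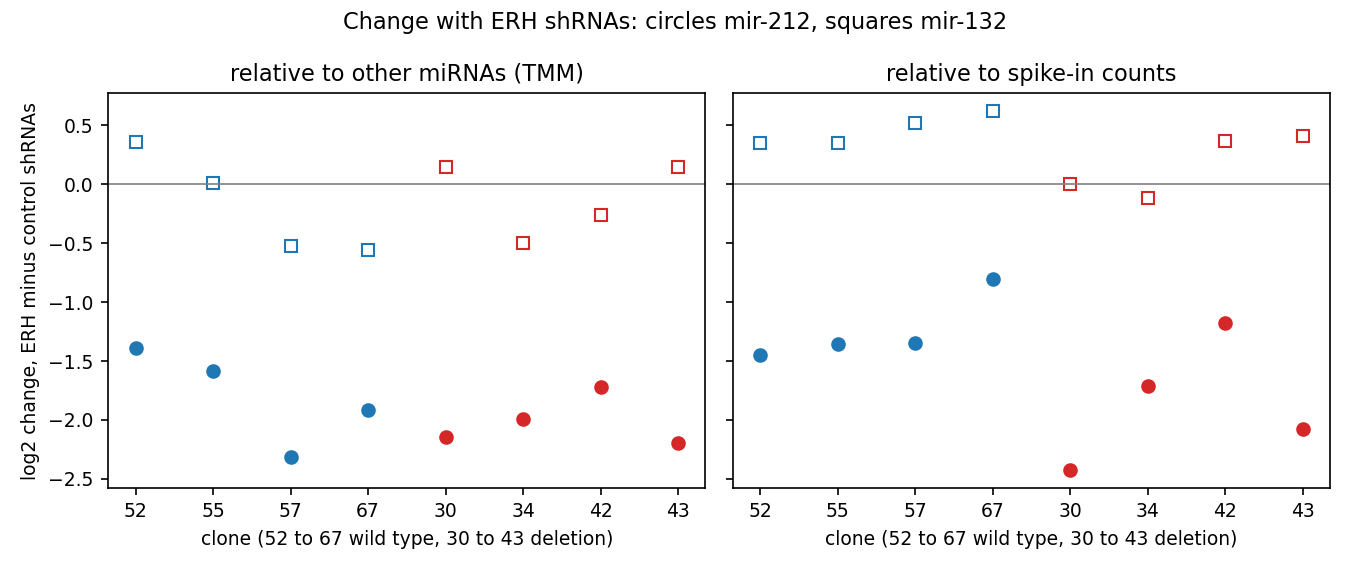
Change per clone with ERH shRNAs in log2 units (vertical), from TMM-scaled CPM (left) and from counts per spike-in count (right), for mir-212 (circles) and mir-132 (open squares) in wild-type (blue) and deletion (red) clones (horizontal). The circles lie below 0 in 8 of 8 clones on both scales, and the squares lie on both sides of 0 on the left and above 0 in 7 of 8 clones on the right.

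A ratio of 2 rows in the same library needs no scaling. Its absolute size also holds how well each RNA is captured, so the change is read rather than the size. With control shRNAs, mir-212 made up 2.91%, 1.58%, 2.43% and 3.29% of the counts of the pair in WT clones 52, 55, 57 and 67. In deletion clones 30, 34, 42 and 43 its share was 2.23%, 2.15%, 1.95% and 1.98%. With ERH shRNAs the share was 0.85%, 0.49%, 0.68% and 1.25% in the WT clones. In the deletion clones it was 0.42%, 0.72%, 0.68% and 0.36%. The precision of a share is given by its exact binomial interval (Clopper-Pearson, 95%), which in WT clone 55, with the fewest mir-212 counts, ran from 1.14% to 2.13% with control and from 0.26% to 0.84% with ERH shRNAs.

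As a log2 ratio of mir-212 to mir-132 (0.5 added to both counts), the control values were -5.30 ± 0.47 (SD, n = 4) in WT and -5.55 ± 0.09 (SD, n = 4) in deletion clones. The values with ERH shRNAs were -6.98 ± 0.56 (SD, n = 4) in WT and -7.54 ± 0.49 (SD, n = 4) in deletion clones. Within clones the ratio changed by -1.83 ± 0.39 (SD, n = 8), a 3.56-fold lower ratio, with a range of -2.46 to -1.41. The change was -1.68 ± 0.20 (SD, n = 4) in WT and -1.99 ± 0.50 (SD, n = 4) in deletion clones. Each ERH vector gave the same picture against the summed controls. The ratio changed by -1.83 ± 0.73 (SD, n = 8) with ERH shRNA 1 and by -1.83 ± 0.50 (SD, n = 8) with ERH shRNA 2, lower in 8 of 8 clones each.

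Single libraries held few mir-212 counts, and some differed within a clone by more than counting error. The control shRNA 1 library of WT clone 55 had 9 mir-212 counts and a share of 0.78%, below the other 15 control libraries and below 6 of the 16 ERH libraries. Its exact binomial interval, 0.36% to 1.48%, lay apart from that of control shRNA 2 in this clone, 1.52% to 3.07%. In WT clone 67 the intervals of control shRNA 1 and 2 were 1.20% to 2.71% and 3.51% to 5.54%. In the other clones these intervals overlapped, and the cause was not tested. The next lowest control library, at 1.66%, came from control shRNA 2 in deletion clone 43. The highest ERH library, at 1.82%, came from ERH shRNA 2 in WT clone 67 with 16 mir-212 counts. Without the WT clone 55 library, an alternative added once the values were known, the knockdown change of the ratio was -1.89 over the 8 clones.

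The deletion under control shRNAs was tested first, since it asks whether the missing DGCR8 segment alters the pair while ERH is present. Neither member passed the threshold. The log2 fold change of mir-212 was -0.39 (edgeR quasi-likelihood test, adjusted p = 0.389 over 536 rows), with a 95% interval of -1.10 to 0.32. That of mir-132 was -0.09 (edgeR adjusted p = 0.785), with an interval of -0.58 to 0.39. Of all 536 rows, 25.9% passed the threshold, an adjusted p under 0.05, with 101 higher and 38 lower (134 and 0 on the spike-in scale, 154 and 4 with total miRNA scaling). The signs of these estimates depended on the scaling: on the spike-in scale, which moved the median of all rows from -0.03 to 0.42, mir-212 was at 0.15 and mir-132 at 0.40, and with total miRNA scaling at 0.027 and 0.34.

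The log2 ratio differed between genotypes by -0.26 under control shRNAs, within the spread of the clones (p = 0.343 by a two-sided exact permutation test, whose smallest possible p is 0.0286; adjusted p = 0.686, with 6 ratio tests in the family). The genotypes overlapped. Without WT clone 55 the difference was -0.47 and every deletion clone lay below every WT clone (unadjusted exact permutation p = 0.0286, the smallest possible). Without only its control shRNA 1 library it was -0.38 (exact permutation p = 0.0571). With control shRNA 1 alone the difference was 0.25 (exact permutation p = 0.857), and with control shRNA 2 alone it was -0.50 (exact permutation p = 0.0857).

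Under ERH shRNAs the log2 fold change of mir-212 between deletion and WT clones was -0.59 (edgeR adjusted p = 0.460 over 569 rows), with a 95% interval of -1.35 to 0.17. That of mir-132 was 0.037 (edgeR adjusted p = 0.934), with an interval of -0.42 to 0.50. None of the 569 rows (0%) passed, with 87 at an unadjusted p under 0.05 and 8 past the threshold by DESeq2. The ratio was lower by -0.56 in deletion clones, with overlap (exact permutation p = 0.200, adjusted p = 0.686). Over the summed counts of all 4 libraries of a clone, the log2 fold changes were -0.20 for mir-212 and 0.016 for mir-132 (edgeR adjusted p = 0.657 and 0.959). Of 651 rows 0.461% passed. The ratio then differed by -0.17 (exact permutation p = 0.543, adjusted p = 0.814). These sums weight the arms by depth, so the difference between arms enters them. Mean miRNA totals with ERH and control shRNAs were 5539254 and 4447643 in WT clones, and 4437268 and 5014220 in deletion clones. As a mean of single-library log2 ratios, the difference was -0.38 (exact permutation p = 0.257).

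The interaction asked whether the response to ERH shRNAs differed between genotypes. For mir-212 it was -0.18 (edgeR adjusted p = 0.838 over 667 rows), with a 95% interval of -0.93 to 0.58, and for mir-132 it was 0.11 (edgeR adjusted p = 0.849), with an interval of -0.39 to 0.60. Scaling moved both: the interaction of mir-212 was -0.61 on the spike-in scale and -0.40 with total miRNA scaling (edgeR adjusted p = 0.569 and 0.620), and that of mir-132 was -0.29 and -0.12. None of the 667 rows (0%) passed in this edgeR fit, with 127 at an unadjusted p under 0.05 and 16 past the threshold by DESeq2. The change of the ratio differed by -0.30 between genotypes, with overlap (exact permutation p = 0.343, adjusted p = 0.686). The intervals leave room for a difference in response in either direction.

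Vectors of the same kind gave the background. Between control shRNA 2 and control shRNA 1, the log2 fold change was 0.23 for mir-212 and 0.25 for mir-132 (edgeR adjusted p = 0.855 and 0.551 over 571 rows), with intervals of -0.29 to 0.76 and -0.0022 to 0.50. The ratio differed by 0.021 ± 0.85 (SD, n = 8) inside a clone (p = 0.938 by exact sign flips, a permutation test; adjusted p = 1.00). By genotype, this ratio difference was 0.40 ± 1.14 (SD, n = 4) in WT clones, with a range of -0.73 to 1.46. In deletion clones it was -0.35 ± 0.16 (SD, n = 4), with a range of -0.55 to -0.19. The split by genotype was not tested. Between ERH shRNA 2 and ERH shRNA 1 the values were 0.033 for mir-212 and 0.053 for mir-132 (edgeR adjusted p = 0.991 and 0.989 over 578 rows), with intervals of -0.76 to 0.83 and -0.16 to 0.27. The ratio differed by 0.00 ± 0.94 (SD, n = 8; exact sign-flip permutation p = 1.00). In these 2 edgeR fits 0% of the rows passed, with 48 and 37 rows at an unadjusted p under 0.05 and 1 row past the threshold by DESeq2 in each.

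Another 12 listed pairs of hairpins from shared primary transcripts, with a row for each hairpin, give the pair a frame. They are not 12 separate transcripts, since mir-545, mir-374a, mir-421 and mir-374b all come from FTX. The list holds well-known partners such as mir-425 and mir-191, mir-221 and mir-222, and mir-497 and mir-195. It also holds mir-144 with mir-451a, the erythroid miRNA that AGO2 rather than Dicer matures. The list was chosen with earlier results of these data known. All 24 rows of the list were tested. With ERH shRNAs 17 of the 24 fell and 0 rose (edgeR adjusted p under 0.05), at a median log2 fold change of -0.40 against 0.06 for all 667 rows, of which 20.1% rose and 16.5% fell (36.6% in all). In WT clones 14 of the 24 fell, against 10.4% of 613 rows (20.9% rose, 31.3% in all), and in deletion clones 8 fell, against 6% of 633 rows (4.27% rose, 10.3% in all). Between deletion clones with ERH shRNAs and WT clones with control shRNAs 13 of the 24 were lower, against 16.5% of 553 rows (30.4% higher, 46.8% in all). Scaling changed these counts. On the spike-in scale, over all 8 clones, 4 of the 24 fell and 2 rose, at a median of 0.053 against 0.52 for all rows, of which 3.3% fell and 34.9% rose. On that scale 1 fell in WT clones (1.79% of all rows), 3 fell and 1 rose in deletion clones (2.69% and 13.4%), and 3 were lower in the last comparison (3.62%). With total miRNA scaling 8 fell over all clones (5.4% of all rows) and 6 fell in WT clones (4.4%). On that scale 4 fell and 1 rose in deletion clones (3.63% and 13.6%), and 3 were lower in the last comparison (4.34%). Under the deletion with control shRNAs 5 of the 24 fell and 0 rose, at a median of -0.52 against -0.03 for all 536 rows, of which 18.8% rose and 7.09% fell. The 5 were mir-1306, from the DGCR8 transcript itself, at -1.53, mir-421 at -0.87, mir-130b at -0.81, mir-191 at -0.69 and mir-221 at -0.59. On the spike-in scale 0 of the 24 and 0 of all 536 rows fell. With total miRNA scaling 1 of the 24 fell, against 0.746% of the 536 rows.

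The ratio within these pairs moved less with ERH shRNAs than that of mir-212 to mir-132. By size, the change of the 12 other pairs had a median of 0.36 and reached 1.44, against 1.83 for mir-212 and mir-132, which were chosen for it. Only the pairs mir-3618 with mir-1306 and mir-425 with mir-191 also moved in the same direction in all 8 clones. The log2 ratio of mir-425 to mir-191 changed by -0.93 ± 0.22 (SD, n = 8), and that of mir-3618 to mir-1306 by 1.44 ± 0.49 (SD, n = 8). The ratio of mir-221 to mir-222 changed by -0.038 ± 0.18 (SD, n = 8). In the size of the deletion effect, where the pair was not chosen, mir-212 and mir-132 ranked 6 of the 13 pairs, at 0.26 against a median of 0.15 for the others. The largest was mir-3618 to mir-1306 at 0.73, the only pair whose genotypes did not overlap. Both hairpins come from the DGCR8 transcript, and whether the edit itself alters their counts was not tested. The gap in counts within the pair, which also holds capture, was exceeded among the 13 pairs only by that of mir-545 and mir-374a. Their log2 ratio in WT control clones was -7.68 ± 0.54 (SD, n = 4) and changed by 0.28 ± 0.59 (SD, n = 8) with ERH shRNAs.

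**Figure D3:**
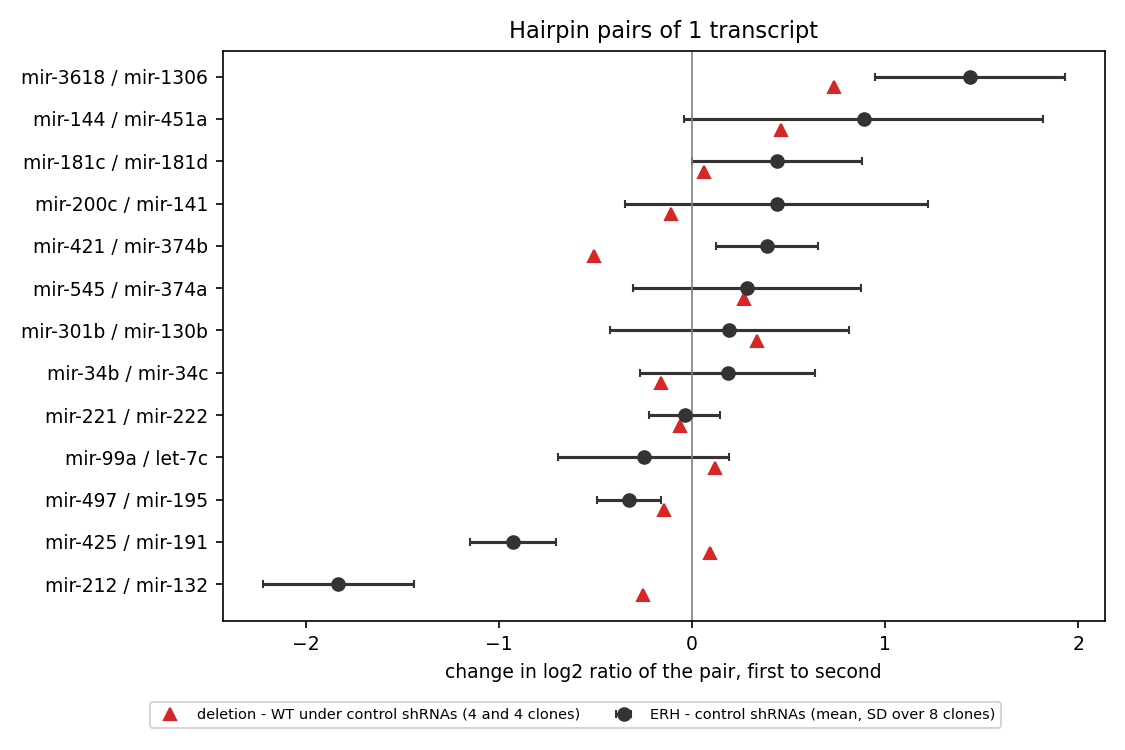
Change in the log2 ratio of the first to the second hairpin (horizontal) of 13 pairs (vertical), with ERH shRNAs (circles, mean and SD over 8 clones) and under the deletion with control shRNAs (triangles, 4 against 4 clones). The circle of mir-212 and mir-132 lies farthest from 0, at -1.83, and its triangle lies at -0.26.

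The level of mir-212 over the 16 sums ran most closely with rows from other places in the genome. Among 366 rows with a mean of at least 10 CPM, Pearson's r of log2 CPM was 0.93 with mir-425, 0.90 with mir-181b, 0.87 with mir-589 and 0.86 each with mir-15b and mir-15a. The log2 fold changes of these 5 with ERH shRNAs were -1.27, -1.33, -1.18, -1.04 and -1.75. With its own neighbour mir-132 the r of mir-212 was 0.34. The rows closest to mir-132 were mir-92a at 0.72, mir-105 at 0.71, mir-1260a at 0.70, and mir-1260b and mir-99a at 0.69 each. These r are descriptions across 16 sums that share libraries, scaling and the split into 2 arms.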

How the data were processed

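Small RNA of 32 libraries was counted by the authors, who deposited total read counts per miRNA precursor name and per spike-in RNA. A QIAseq miRNA library was made from 100 ng of RNA, taken from 400 ng to which 4 spike-in RNAs had been added, per the labels' protocols. SAMtools is named in the submitters' processing notes. The aligner, annotation, trimming and use of molecular identifiers are not given in the sources used here. Library totals set the precision stated with the values. All 32 columns matched a library (0 left over).

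Counts of the 2 vectors of an arm were summed per clone. edgeR 4.0.16 (R 4.3.3) fitted all rows passing filterByExpr with TMM scaling, and rows were called at a Benjamini-Hochberg adjusted p under 0.05; DESeq2 1.42.0 was an alternative. The clone was a block for interaction, shRNA comparisons and knockdown; the pairing comes from the labels, in which every clone received all vectors. Log2 CPM used a prior count of 2. Ratios were tested by exact permutation over 70 genotype arrangements or 256 sign flips. Folds came from ViennaRNA. The edgeR script was tested on simulated data. The text names the 2 members, the rows of the 12 listed pairs and the 5 rows most correlated with each member. Members and lists were chosen with earlier results of these data known. Alternatives were scaling, filter, tool, single vectors, single libraries as samples, no block, pseudocount and leaving out each clone.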

Additional observations from a re-analysis of the deposited data

How the results depend on the processing

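The low counts of mir-212 left it out of some alternatives. Restricted to rows with a mean of at least 100 counts, the tested comparisons gave it a value only over all libraries of a clone. It also has no value between ERH shRNAs without the block, nor for the deletion under ERH shRNAs with shRNA 2 alone or with each library as its own sample. No adjusted p of a member passed 0.05 under any alternative run; the only change of side was the control-arm ratio without WT clone 55. Where estimates turned sign, the cause was not tested.

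Leaving out each clone in turn, deletion against WT with control shRNAs gave -0.66 to -0.14 for mir-212, -0.25 to 0.20 for mir-132, -0.47 to -0.11 for the ratio and 83 (without deletion clone 34) to 129 rows called. With ERH shRNAs mir-132 ranged from -0.18 to 0.14 and calls from 0 to 1 (without deletion clone 43). Over all libraries mir-212 ranged from -0.36 (without WT clone 55) to -0.019 (without WT clone 67), mir-132 from -0.10 to 0.13, the ratio from -0.35 to 0.021 and calls from 1 to 21, with 21 without deletion clone 30, 5 without WT clone 57 and 1 without deletion clone 34 or 43 or WT clone 52, 55 or 67. The interaction of mir-212 ranged from -0.44 (without WT clone 57) to -0.032 (without WT clone 52), and that of mir-132 from -0.079 to 0.28 with 0 to 35 calls (35 without WT clone 52, 3 without WT clone 67). For control shRNA 2 against 1, mir-212 ranged from 0.066 (without WT clone 55) to 0.37 (without WT clone 52) and the ratio from -0.18 to 0.13. For ERH shRNA 2 against 1, mir-212 ranged from -0.22 to 0.22, the ratio from -0.19 to 0.16 and calls from 0 to 1 (without deletion clone 42).

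With spike-in scaling and control shRNAs, mir-212 was at 0.15 and mir-132 at 0.40 for the deletion; over all libraries mir-212 was at 0.033; the interaction was -0.61 for mir-212 and -0.29 for mir-132; ERH shRNA 2 against 1 gave -0.072 for mir-212 and -0.060 for mir-132. The knockdown values were -1.53 and 0.31 for mir-212 and mir-132 over all clones, -1.23 and 0.46 in WT clones, and -1.84 for mir-212 in deletion clones. Deletion with ERH shRNAs against WT with controls gave -1.74 for mir-212 and 0.55 for mir-132 (main values -2.41 and -0.096). With total miRNA scaling these were -1.91 and 0.41, the deletion under control shRNAs gave 0.027 and 0.34, mir-212 over all libraries 0.11, the interaction -0.40 for mir-212 and -0.12 for mir-132, and calls were 104 over all libraries, 29 for the interaction and 1 for the ERH shRNAs.

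Without a filter, the interaction of mir-132 was -0.034 with 19 calls, and calls were 1 for the deletion with ERH shRNAs, 16 over all libraries and 3 between ERH shRNAs. Rows with a mean of at least 100 counts gave mir-132 0.063 for the deletion with control shRNAs and -0.047 for the interaction, with 76 calls and 29 calls, 32 over all libraries and 1 between control shRNAs. DESeq2 gave mir-132 -0.054 with ERH shRNAs and -0.056 over all libraries, with 8 calls for the deletion with ERH shRNAs, 93 over all libraries, 16 for the interaction and 1 each for the vector comparisons. Single vectors gave, with shRNA 1, a ratio difference of 0.25 under controls and 0.087 over all libraries, mir-132 at -0.069 and 18 calls over all libraries, and a WT knockdown ratio change of -1.43. With shRNA 2, mir-132 under ERH shRNAs was at -0.068, with 35 calls under controls and 1 over all libraries. Each library as its own sample gave 223, 55 and 196 calls for the deletion under controls, under ERH shRNAs and over all libraries. A pseudocount of 2 gave a control-vector ratio difference of -0.0053. Without the replicate block the interaction was -0.20 for mir-212 and 0.13 for mir-132, and the block changed no call of the pair.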
